A study of Arabidopsis thaliana with 18 samples.

Results

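The genes described are the expansins and the xyloglucan endotransglucosylase/hydrolase (XTH) genes of Arabidopsis thaliana, 57 of the 24951 genes listed in the deposited gene tables. Members were taken by their annotation: a description naming an expansin, a xyloglucan endotransglucosylase or a xyloglucan endotransglycosylase, or a symbol of either family. The rule found 26 expansins (19 alpha-expansins, 3 beta-expansins, 3 expansin-like A genes and 1 expansin-like B gene) and 31 XTH genes (25 of group I/II, 2 of group III-A and 4 of group III-B). The files give XTH22 as TCH4 and XTH23 as XTR6, and those symbols are kept here.

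RNA was sequenced from wild type seedlings that had been held in darkness for 7 days and were then given 0, 1, 2, 4, 8 or 12 h of light. Each of the 6 times had 3 polyA libraries. All groups share the dark period, and no group was kept in darkness for the added hours, so hours of light cannot be told apart from seedling age or time of day. The labels do not say that the 3 libraries of a time came from separate cultures, so p-values measure the spread between these libraries. Whole seedlings were used, and fewer cells of a type cannot be told apart from less of a transcript per cell.

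Expansins are small wall proteins that loosen the plant cell wall at acid pH without cutting its polymers. XTH enzymes cut xyloglucan, the hemicellulose that coats and joins cellulose microfibrils, and rejoin the cut end to another xyloglucan chain or to water. In a dark-grown seedling the hypocotyl elongates fast while the cotyledons stay closed, and light slows the hypocotyl and starts cotyledon opening and expansion, so that growth moves from one organ to the other.

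The XTH enzymes share a short catalytic stretch, shown here for members whose levels are described further on. The coding stretches below are 27 bases long, from the RefSeq TAIR10.1 genome, with the codons of the catalytic nucleophile and the acid/base glutamate in capitals.
XTH15: gacGAGatagactttGAGtttctaggt
XTH24: gatGAGattgattttGAGttcttgggt
XTH4: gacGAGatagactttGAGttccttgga
XTH6: gacGAGctagattttGAGttcttggga
XTH9: aacGAAttcgattttGAGttcttaggg
XTH32: gatGAGgtagacataGAAtttttgggg
XTH31: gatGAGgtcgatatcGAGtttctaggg
XTH30: gacGAGttagacataGAGtttctaggg
The full stretch searched in the translated coding sequence was aspartate, glutamate, any residue, aspartate, phenylalanine, glutamate, phenylalanine, leucine and glycine. It was found in 23 of the 25 group I/II genes and in 1 of the 4 group III-B genes. XTH9, both group III-A genes and the other 3 group III-B genes held only the core (glutamate, any residue, aspartate, any residue, glutamate). XTH11 held neither, and nothing follows from that about its activity. Among the expansins, the codons for histidine, phenylalanine and aspartate in a row, a motif of the catalytic-like domain, were found in 17 of 19 alpha-expansins, in 2 of 3 beta-expansins and in none of the 4 expansin-like genes.

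Stretches of 300 bases before the annotated gene start were searched on both strands for 5 motifs. They were the G-box CACGTG bound by light-signalling factors, its variant CACATG bound by PIF factors, the elements CGTGTG and also CGTGCG bound by brassinosteroid factors, and the auxin response element TGTCTC. The regions shown are those of EXPA7 and EXPB3, and of EXPA1 and EXPA10, the 2 alpha-expansins that rose from 2 h on. EXPA7 and EXPB3 are 2 of the 9 tested expansins with their highest mean at 2 h. The others, EXPA4, EXPA5, EXPA6, EXPA13, EXPA14, EXPB1 and EXLA2, held no CGTGCG. Motif letters are in capitals, and the reverse complement of a motif counts as the motif.
EXPA7, chr1:4276205-4276504, plus strand: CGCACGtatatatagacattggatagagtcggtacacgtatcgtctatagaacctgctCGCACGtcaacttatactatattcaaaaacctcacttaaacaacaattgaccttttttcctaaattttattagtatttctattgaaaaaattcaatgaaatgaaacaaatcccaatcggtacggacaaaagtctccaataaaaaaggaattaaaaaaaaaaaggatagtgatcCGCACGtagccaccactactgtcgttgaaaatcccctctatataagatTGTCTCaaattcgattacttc
EXPB3, chr4:14002125-14002424, minus strand: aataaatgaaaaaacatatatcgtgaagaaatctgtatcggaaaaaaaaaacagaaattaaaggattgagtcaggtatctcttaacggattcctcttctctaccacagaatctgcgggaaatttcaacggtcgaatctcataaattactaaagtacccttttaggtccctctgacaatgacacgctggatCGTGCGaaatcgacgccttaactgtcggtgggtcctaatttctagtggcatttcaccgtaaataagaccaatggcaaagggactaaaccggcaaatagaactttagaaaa
EXPA1, chr1:26141426-26141725, plus strand: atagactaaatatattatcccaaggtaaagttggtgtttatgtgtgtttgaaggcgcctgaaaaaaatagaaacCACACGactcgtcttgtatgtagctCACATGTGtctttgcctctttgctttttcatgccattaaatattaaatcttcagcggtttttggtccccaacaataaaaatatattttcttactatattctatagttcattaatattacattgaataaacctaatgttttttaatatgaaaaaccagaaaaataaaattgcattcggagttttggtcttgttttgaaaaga
EXPA10, chr1:9259132-9259431, plus strand: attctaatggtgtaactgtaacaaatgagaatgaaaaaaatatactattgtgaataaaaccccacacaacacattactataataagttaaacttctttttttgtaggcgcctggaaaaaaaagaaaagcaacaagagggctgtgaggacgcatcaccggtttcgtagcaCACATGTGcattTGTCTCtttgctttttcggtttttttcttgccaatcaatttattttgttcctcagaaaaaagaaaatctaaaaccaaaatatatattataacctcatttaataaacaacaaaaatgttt
EXPA7 and EXPB3 lie in regions that hold CGTGCG, 3 copies before EXPA7 and 1 before EXPB3. CGTGCG stood before 3 of the 26 expansins (11.5%), the other one being EXPA18, and before 0 of the 31 XTH genes, against 1.78% of the 27443 protein-coding genes with such a region. The region of EXPA18 overlaps an annotated exon, as do those of EXPA13, EXPA20, EXLA2 and XTH5, while the 4 regions shown do not. Among regions without an exon, CGTGCG stood before 2 of 22 expansins (9.09%) and 1.67% of 18970 genes. In such regions, the shares of expansins with CGTGTG and TGTCTC given below were 13.6% and 18.2%. EXPA1 and EXPA10 each hold CACATG and its reverse complement overlapping as 1 run. CACATG stood before 7 of 26 expansins (26.9%), 5 of 31 XTH genes (16.1%) and 13.1% of all genes. CACGTG stood before 1 of the 57 members, EXPA2, against 7.09% of all genes. CGTGTG stood before 4 expansins and 4 XTH genes (15.4% and 12.9%, against 6.11%), and TGTCTC before 4 and 3 (15.4% and 9.68%, against 13%). Such matches describe the letters of these windows and are not evidence of binding.

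Summed expected counts lay between 20072467 and 22760811 per library. Of the 57 members, 44 were listed in all 18 libraries, and 46 (22 expansins and 24 XTH genes) had enough counts to be tested. Marker lists for other organs and cell types showed 2 sets of libraries that stand apart. Seed storage transcripts summed to 6595 FPKM (a level corrected for transcript length and library depth) in 0 h replicate 3, against 702 and 281 in 0 h replicates 1 and 2, and to between 764 and 4241 in the libraries of 1 h and 2 h. Root markers summed to 3245, 3634 and 1073 FPKM in the 2 h libraries and to between 567 and 1293 in the other 15, and the epidermis markers PDF1 and ATML1 summed to 669, 556 and 215 at 2 h and to between 66.7 and 174 elsewhere. Where leaving out 1 library ended a call of a member whose values are given below, this is said beside it. For genes outside the 2 families, fits that left out 1 library are not given.

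As a family, XTH genes were the more abundant in every library, and the 2 sums took different courses. The XTH sum was highest in the dark, at 2962 ± 223 FPKM (SD, n = 3). It was 2307 ± 217 after 1 h of light, 2125 ± 285 after 2 h and 2110 ± 367 after 4 h. The 2 late times had XTH sums of 1832 ± 611 (8 h) and 1905 ± 284 (12 h). All 3 dark libraries (2709 to 3130 FPKM) were above all 15 libraries in the light. The expansin sum was 333 ± 52.4 FPKM in the dark, stood below all other times at 1 h (180 ± 20.1, with libraries between 157 and 196), and came back to 415 ± 69.9 at 2 h. Later expansin sums were 270 ± 67.1 (4 h), 452 ± 208 (8 h) and 386 ± 138 (12 h). Expansin sums overlapped with those of the dark at 2, 4, 8 and 12 h. The sums are descriptions, without a test.

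**Figure D1:**
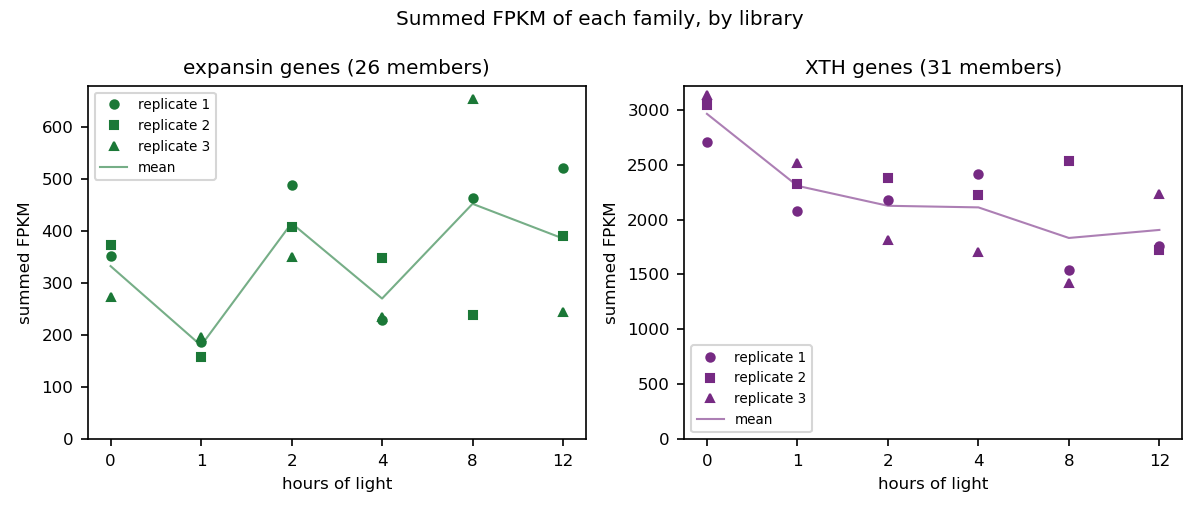
Summed FPKM of the 26 expansins (left) and the 31 XTH genes (right) in each library, by hours of light (times drawn at equal spacing), with 1 symbol per replicate and a line through the means of 3 libraries. The 3 XTH values in the dark lie above all later values, and the 3 expansin values at 1 h lie below those of all other times.

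Few members carried each sum. XTH24 alone held 59.8% of the XTH sum in the dark and 60.5% at 12 h, but 40.6% at 2 h, when XTH4 held 30.7%. XTH15, which held 13.0% in the dark, was not among the 5 highest XTH genes at 12 h, when TCH4 (5.31%) and XTH31 (3.33%) were. The leading expansin changed: EXPA8 held 29.04% of the expansin sum in the dark (96.6 FPKM), and EXPA1 held 39.0% at 12 h (151 FPKM). EXPA8, EXPA4 and EXPA11 were among the 5 highest expansins in the dark but not at 12 h, when EXPA1, EXPA10 and EXPA2 were. EXLA1 and EXPA9 were in the list at both times. These ranks are among the members and leave out EXP3 and EXGT-A3, which are described further on.

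Each time in the light was first set against the dark. A gene was called higher or lower if edgeR's quasi-likelihood test gave an adjusted p under 0.05 (Benjamini-Hochberg, over all 20569 genes tested) and the level differed by 1 or more on the log2 scale. The 5 comparisons share the same 3 dark libraries. At 1 h no expansin and no XTH gene was higher, and 2 of 22 expansins (EXPA8 and EXPA9) and 5 of 24 XTH genes were lower. Over all genes, 3.66% were higher and 2.09% lower at 1 h, 5.75% together. At 2 h, 7 expansins were higher (EXPA7 among them, which passed the count filter only through the 2 h libraries) and 2 lower, and 7 XTH genes were higher and 4 lower, where 13.9% of all genes were higher and 6.46% lower (20.4% together). At 4 h the families were 2 higher and 5 lower (expansins) and 8 higher and 4 lower (XTH), against 11% and 7.51% of all genes (18.5% together). At 8 h the counts were 4 and 7 for expansins and 5 and 5 for XTH genes, against 13.6% and 9% (22.6% together), and at 12 h they were 2 and 5 and again 5 and 5, against 13.1% and 9.19% (22.3% together).

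The medians of the log2 fold changes moved together at 1 h (-0.31 for expansins and -0.38 for XTH genes, against -0.06 for all genes) and at 2 h (0.46 and 0.48, against 0.10). At 4 h they stood on opposite sides of 0, at -0.46 for expansins and 0.50 for XTH genes. Over the 5 times, 8 expansins were higher at 1 or more times, 8 were lower, 1 (EXPA5) was higher at one time and lower at another, and 5 were never called. The 8 higher ones include EXPA7, called at 2 h only, which passed the count filter only through the 2 h libraries. EXPA7 also enters the expansin median at 2 h and the 22 expansins of the F test below. Among XTH genes 11 were higher, 9 lower and 4 never called. Of all genes, 22.9% were higher at 1 or more of these times, 15% were lower, and 0.943% were called in both directions. By the F test over all 6 times, 20 of 22 expansins and 20 of 24 XTH genes differed, against 75% of all genes. The 2 expansin calls at 1 h became 5 when 0 h replicate 3 was left out, and 1 when 0 h replicate 2, 1 h replicate 2 or 1 h replicate 3 was. The expansin count of 7 at 12 h was 11 without 0 h replicate 3, and that of 11 at 8 h was 7 without 0 h replicate 2.

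**Figure D2:**
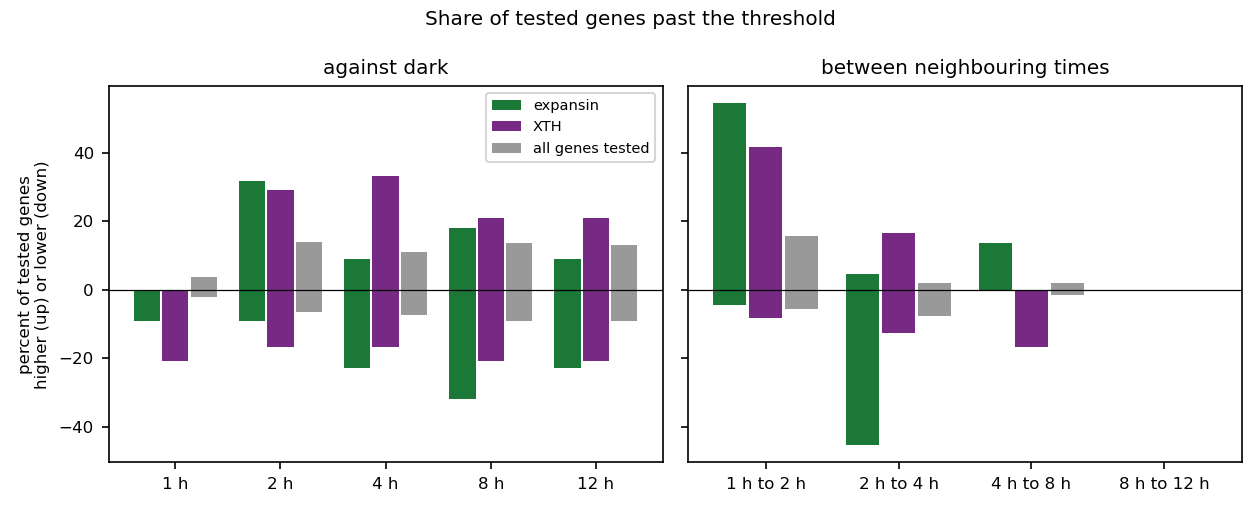
Percent of tested genes that passed the threshold as higher (upward bars) or lower (downward bars), for 22 expansins, 24 XTH genes and all 20569 genes, against dark (left) and between neighbouring times (right). Between 1 h and 2 h the upward bars of both families exceed that of all genes, between 2 h and 4 h the downward bar of expansins is the longest, and from 8 h to 12 h there are no bars.

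Between neighbouring times the step from 1 h to 2 h held most of the rises. From 1 h to 2 h, 12 expansins rose and 1 (EXLA1) fell, and 10 XTH genes rose and 2 (XTH15 and XTH24) fell, where 15.7% of all genes rose and 5.66% fell (21.4% together). From 2 h to 4 h, 10 expansins fell and 1 (EXLA1) rose, while 3 XTH genes fell and 4 rose, where 7.73% of all genes fell and 2.04% rose (9.77% together). The median log2 change of expansins was 1.28 in the first of these steps and -1.12 in the next, and that of XTH genes was 0.31 and -0.09. The 2 steps share the 2 h libraries. EXPA7 is among the 12 rises and the 10 falls and enters both medians. It passed the count filter only through the 2 h libraries, so its calls in these steps are descriptions. Of the 11 expansin calls from 2 h to 4 h, leaving out 4 h replicate 1 gave 5 and leaving out 2 h replicate 1 gave 7. The XTH count of 7 was 3 without 2 h replicate 1 or 4 h replicate 1, 4 without 2 h replicate 2, and 3 when only the 2 groups entered the fit.

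From 4 h to 8 h, 3 expansins rose (EXPA1, EXPA9 and EXLB1) and 4 XTH genes fell (XTH15, XTH17, XTH18 and XTR6), against 1.9% and 1.67% of all genes (3.57% together). Those 3 expansin calls depended on single libraries: the count was 0 without 4 h replicate 2, 1 without 4 h replicate 1, 8 h replicate 1 or 8 h replicate 3, and 5 without 8 h replicate 2. From 8 h to 12 h no member passed, as for all genes (0%). In that step 944 of all 20569 genes but 0 of the 46 members had an unadjusted p under 0.05 with edgeR's quasi-likelihood test, and DESeq2 and limma-voom called 7 and 1 of all genes and also no member.

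**Figure D3:**
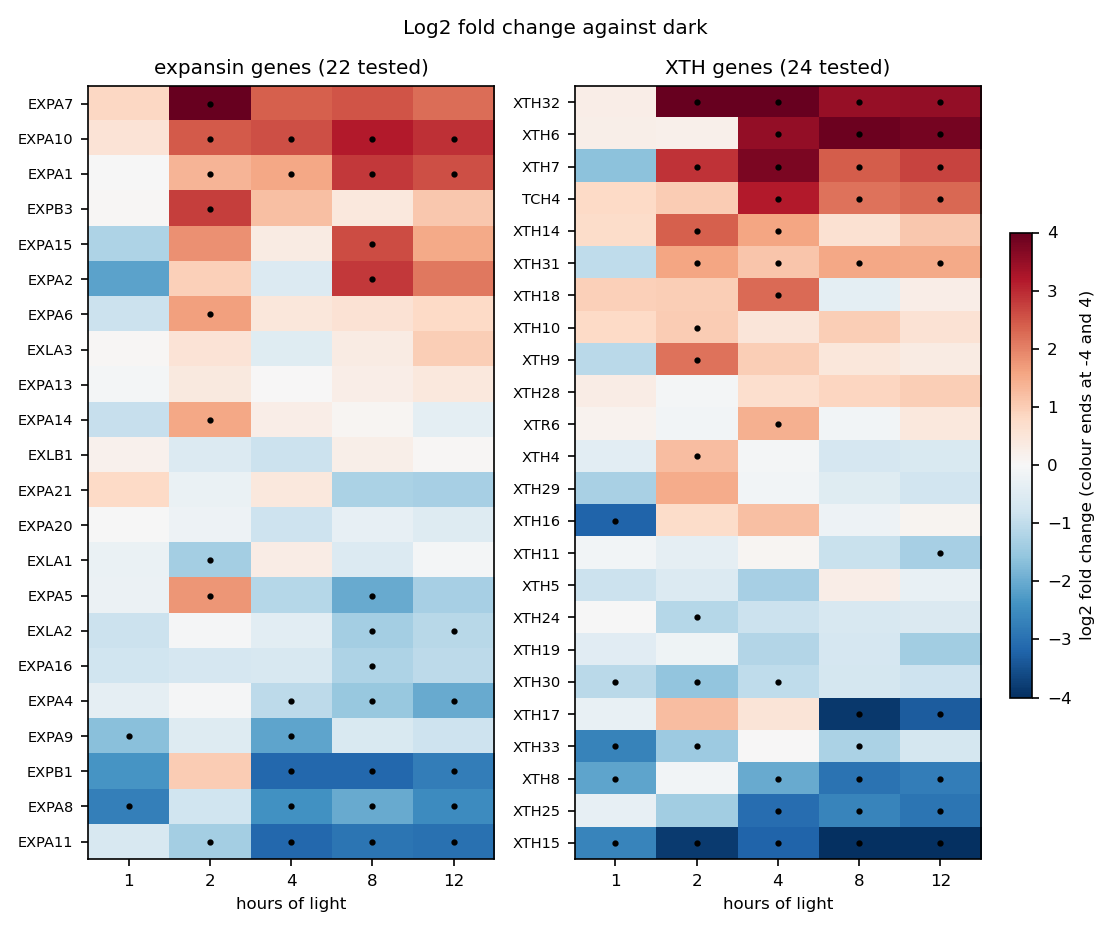
Log2 fold change against dark (colour) of the 22 expansins and 24 XTH genes tested, at 1, 2, 4, 8 and 12 h of light, ordered by their mean over the times, with a dot where the change passed the threshold. XTH32 is called higher from 2 h on and XTH15 lower at all 5 times, and EXPA1 and EXPA10 are called higher from 2 h on.

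Among the XTH genes of group I/II, XTH15, known as a gene raised by shade, showed the widest fall. Its FPKM in the dark was 245, 262 and 645 in replicates 1 to 3, and 51.7, 51.2 and 73.1 at 1 h. At 2 h it was 34.7, 28.5 and 21.4, at 4 h 24.0, 52.7 and 47.2, at 8 h 8.57, 7.23 and 9.40, and at 12 h 11.8, 5.82 and 9.74. Every library in the light was below every dark library, and the high dark value of replicate 3 was not needed for the calls. The log2 fold change was -2.64 (SE 0.36) at 1 h (adjusted p = 9.85e-05) and -5.32 (SE 0.41) at 12 h (adjusted p = 6.31e-08), and the gene was lower at all 5 times in each fit that left out 1 library. Its counts were mostly fractional, as estimated counts are for reads that match several genes. The coding sequence was 81.7% identical to that of XTH16, and the locus overlaps AT4G14120 on the opposite strand by 382 bases, a gene at 0.09 to 0.72 FPKM.

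XTH24, the most abundant member, kept its dark level at 1 h. It stood at 1599, 1937 and 1778 FPKM in the dark, at 1578, 1785 and 1815 at 1 h, and at 639, 897 and 1052 at 2 h. The 2 h libraries were all below those of both earlier times. The log2 fold change at 2 h was -1.14 (SE 0.28, adjusted p = 0.00417), and -0.97 without 2 h replicate 1 (adjusted p = 0.0253), which is under the minimum fold. At 12 h its levels were 988, 1048 and 1420 FPKM, and the change was not called.

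XTH17 and XTH8 were also low late in the course. XTH17, known like XTH15 as a shade-raised gene, held 25.5, 24.99 and 6.22 FPKM in the dark, 35.7, 37.7 and 10.2 at 4 h, and 1.24, 1.24 and 1.40 at 8 h. It fell from 4 h to 8 h by 4.36 on the log2 scale (SE 0.65, adjusted p = 0.000968), the largest called step of any member between these times. At 2 h XTH17 was at 68.3, 56.3 and 20.8 FPKM (log2 fold change 1.25, adjusted p = 0.0667), and with the replicate number as a block it passed (1.28, adjusted p = 0.0440). Its coding sequence was 92.2% identical to that of XTH18 and 88.6% to that of XTH19, so counts of the 3 are uncertain, and all 3 were mostly fractional. XTH18 nevertheless had another course, with 14.1, 3.69 and 26.8 FPKM in the dark, 87.5, 92.0 and 29.0 at 4 h (log2 fold change 2.26, SE 0.60, adjusted p = 0.00636; 2.93 without 0 h replicate 3) and 6.94, 15.8 and 8.77 at 8 h. XTH19 was not called at any time. XTH8 was at 13.3, 18.2 and 7.27 FPKM in the dark and at 2.27, 1.67 and 1.64 at 12 h (log2 fold change -2.78, SE 0.50, adjusted p = 0.000329), and its libraries did not overlap. XTH11 was lower only at 12 h by the threshold (-1.34, SE 0.32, adjusted p = 0.00320), and without 0 h replicate 3 it missed the minimum fold (-0.9994).

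In the dark, XTH16 and XTH25 were highest in replicate 3, the library that stood apart. XTH16 was at 16.0, 9.58 and 67.4 FPKM in the dark, at 3.18, 1.85 and 4.37 at 1 h, and at 78.9, 56.8 and 20.2 at 2 h. Its log2 fold change at 1 h was -3.20 (SE 0.68, adjusted p = 0.00448) and -2.02 without 0 h replicate 3, still called, and limma-voom gave an adjusted p of 0.0606. XTH25 was at 4.81, 1.71 and 34.7 FPKM in the dark and at 2.45, 0.90 and 1.58 at 12 h. Its fall at 12 h (-2.94, SE 0.87, adjusted p = 0.0115) was not called without 0 h replicate 3 (-0.97, adjusted p = 0.242) or without 12 h replicate 2 (adjusted p = 0.0517). Without the dark replicate, the adjusted p of XTH25 was 0.206 at 4 h and 0.402 at 8 h. Whether the seed storage transcripts of that library bear on these levels was not tested.

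Of the group I/II genes that rose, XTH4, XTH9, XTH7, XTH14 and XTH10 were called at 2 h. XTH4, the second most abundant XTH gene at 2 h, was at 319, 295 and 159 FPKM in the dark and at 856, 829 and 275 at 2 h. Only replicates 1 and 2 of 2 h exceeded the dark libraries. The log2 fold change was 1.25 (SE 0.39, adjusted p = 0.0158), with adjusted p = 0.0551, 0.0769 and 0.0658 without 0 h replicate 3, 2 h replicate 1 and 2 h replicate 2. XTH10, at 1.37, 0.49 and 0.95 FPKM in the dark and 2.66, 2.01 and 1.33 at 2 h, just passed (1.02, adjusted p = 0.0326), and the call was lost without 0 h replicate 2 (adjusted p = 0.147), 0 h replicate 3 (0.0695), 2 h replicate 1 (0.153) or 2 h replicate 2 (0.0673). XTH9 was at 3.07, 2.42 and 10.12 FPKM in the dark and at 38.3, 25.9 and 7.52 at 2 h, so that replicate 3 of 2 h lay within the dark range (2.16, SE 0.56, adjusted p = 0.00525; 2.95 without 0 h replicate 3). XTH7 was higher at each time from 2 h on. It was at 2.60, 1.50 and 8.90 FPKM in the dark, 44.8, 40.6 and 13.3 at 2 h, 60.2, 84.8 and 28.98 at 4 h, and 23.8, 33.01 and 21.7 at 12 h, with no overlap between the dark and the later libraries from 2 h on. Its log2 fold change was 3.77 (SE 0.57, adjusted p = 7.67e-05) at 4 h and 2.69 (SE 0.55, adjusted p = 0.000940) at 12 h, and 4.76 and 3.68 without 0 h replicate 3.

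A later set of group I/II genes rose between 2 h and 4 h. XTH6 was at 3.82, 0.64 and 9.46 FPKM in the dark and still at 4.48, 4.96 and 7.08 at 2 h. It reached 74.6, 62.9 and 17.5 at 4 h, 56.9, 88.8 and 49.7 at 8 h, and 68.4, 46.9 and 67.6 at 12 h. The libraries from 4 h on were all above all earlier ones. The step from 2 h to 4 h was 3.31 (SE 0.62, adjusted p = 0.00268), and the log2 fold change at 12 h was 3.82 (SE 0.64, adjusted p = 0.000163), or 4.80 without 0 h replicate 3. TCH4, first known as a gene induced by touch, was at 16.8, 7.25 and 42.8 FPKM in the dark, 223, 245 and 116 at 4 h, and 104, 61.7 and 138 at 12 h, again without overlap. Its log2 fold change was 3.17 (SE 0.47, adjusted p = 6.60e-05) at 4 h and 2.29 (SE 0.46, adjusted p = 0.000747) at 12 h, and 3.97 and 3.10 without 0 h replicate 3. XTR6, whose coding sequence was 80.9% identical to that of TCH4, was called at 4 h only (13.2, 10.5 and 21.9 FPKM in the dark; 43.0, 47.8 and 30.6 at 4 h), with a log2 fold change of 1.42 (SE 0.29, adjusted p = 0.00109) and a return of -1.51 (adjusted p = 0.00513) by 8 h.

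Some XTH genes lie side by side. On chromosome 5, XTH25 (23304782 to 23306440) and TCH4 (23307006 to 23308680) are 566 bases apart. From 4 h on, XTH25 was called lower and TCH4 higher. The XTH25 calls were lost without 0 h replicate 3, as given above. On chromosome 4, XTR6 (13128394 to 13129927) lies 364 bases from XTH14 (13130291 to 13131860). Both were called higher at 4 h, and XTH14 also at 2 h, from 0.77, 0.69 and 0.46 FPKM in the dark to 3.24, 5.21 and 2.33 (log2 fold change 2.39, SE 0.45, adjusted p = 0.000517). Further along chromosome 4, XTH24, XTH18 and XTH19 follow each other, with gaps of 5162 and 1501 bases: XTH24 was lower at 2 h, XTH18 higher at 4 h, and XTH19 not called. XTH12 and XTH13, next to XTH25, did not pass the count filter. Positions are those of the deposited files.

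Both group III-A genes, whose best studied member XTH31 acts mainly as a hydrolase, were higher at 2, 4, 8 and 12 h. XTH32 was at 0.84, 0.63 and 1.41 FPKM in the dark and at 1.18, 1.18 and 1.06 at 1 h. It reached 82.6, 79.3 and 23.1 at 2 h and was at 15.7, 20.4 and 27.6 at 4 h and at 8.57, 14.8 and 8.10 at 12 h. Every library from 2 h on was above every earlier one. The log2 fold change was 5.94 (SE 0.49, adjusted p = 3.17e-07) at 2 h, the highest of any member, and 3.51 (SE 0.46, adjusted p = 1.71e-05) at 12 h. XTH31 was at 27.8, 14.7 and 26.6 FPKM in the dark, 13.3, 7.11 and 12.6 at 1 h, 75.5, 96.5 and 44.3 at 2 h, and 80.1, 68.1 and 42.25 at 12 h. Its libraries at 2 h and at 12 h were all above the dark ones, with a log2 fold change of 1.59 (SE 0.37, adjusted p = 0.00243) at 2 h and 1.52 (SE 0.37, adjusted p = 0.00315) at 12 h. The call for XTH31 at 4 h (1.12, adjusted p = 0.0205) was lost without 0 h replicate 2 (adjusted p = 0.0839) or 4 h replicate 3 (adjusted p = 0.0630).

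Among the members, group III-B had no gene called higher. EXGT-A3, a group III-B gene that the annotation rule did not take, had means of 100 FPKM in the dark and 250 at 12 h. It is described further on. XTH30, among the 3 most abundant XTH genes in the dark, was at 349, 409 and 212 FPKM in the dark, 143, 164 and 144 at 1 h and 87.7, 116 and 148 at 2 h. All libraries of 1 h and 2 h were below those of the dark. Its log2 fold change was -1.09 (SE 0.28, adjusted p = 0.0190) at 1 h and -1.58 (SE 0.29, adjusted p = 0.000376) at 2 h. The 1 h call was lost without 0 h replicate 1 (adjusted p = 0.0519), 0 h replicate 2 (0.111), 1 h replicate 1 (0.0783) or 1 h replicate 3 (0.0788). XTH33 was at 3.38, 2.57 and 6.84 FPKM in the dark and at 0.45, 0.41 and 1.04 at 1 h (log2 fold change -2.68, SE 0.54, adjusted p = 0.00310), a call kept in all fits that left out 1 library. XTH28 was at 21.1, 16.0 and 23.9 FPKM in the dark and at 36.5, 40.03 and 39.6 at 12 h, without overlap, and at a log2 fold change of 0.99 (SE 0.12, adjusted p = 5.95e-06) it missed only the minimum fold. XTH29 was near 0 throughout, between 0.00 and 0.51 FPKM.

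**Figure D4:**
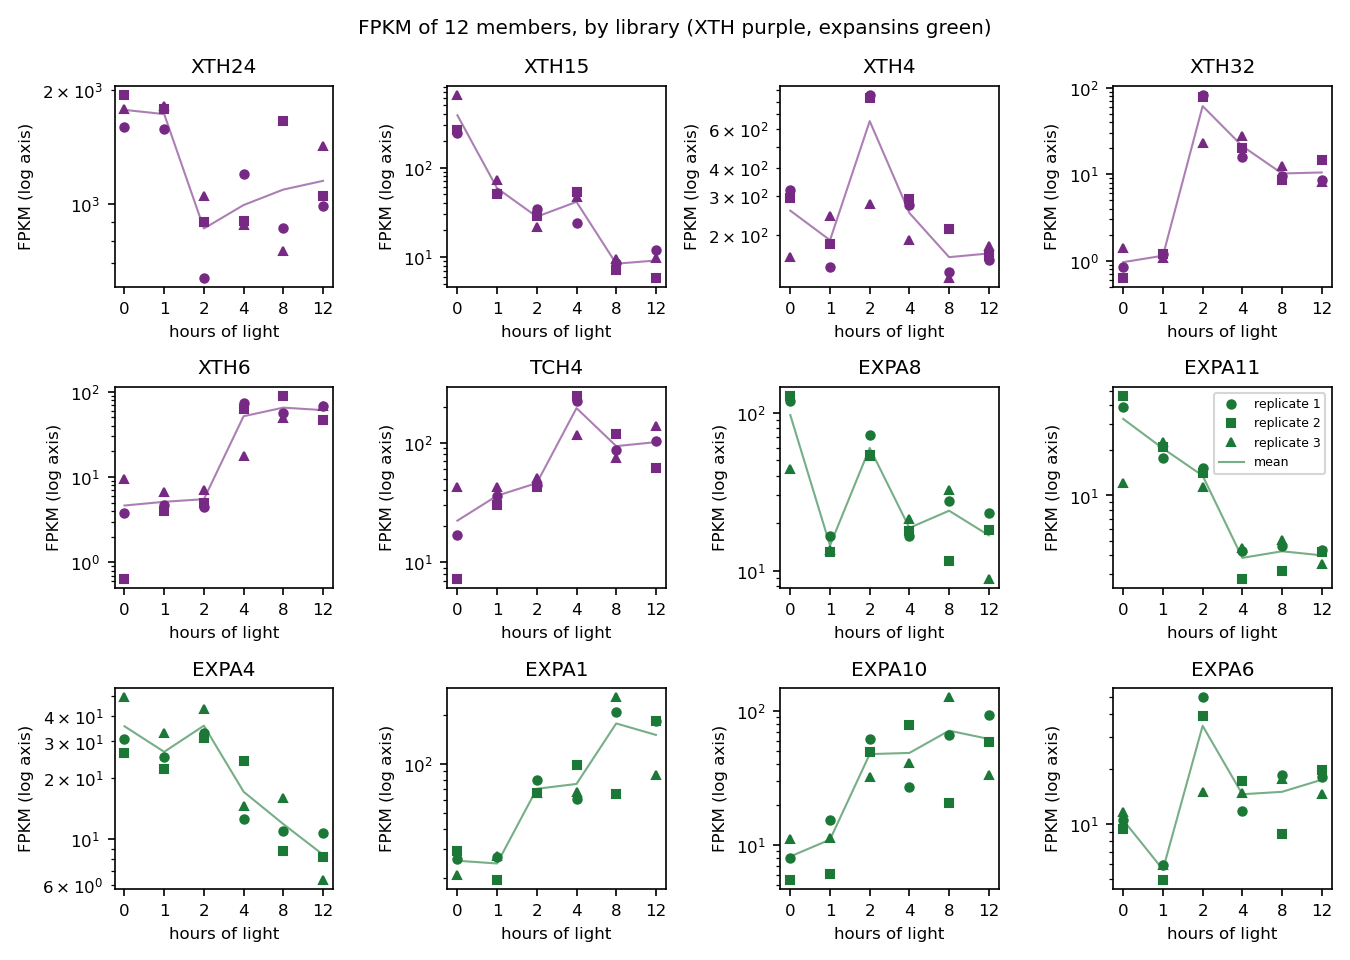
FPKM on a log axis of 6 XTH genes (purple) and 6 expansins (green) in each library, by hours of light (times at equal spacing), with 1 symbol per replicate and a line through the means. XTH15 and EXPA11 are lower at 12 h than in any dark library, XTH32 steps up at 2 h, XTH6 and TCH4 at 4 h, and EXPA1 is above the dark libraries from 2 h on.

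Among the alpha-expansins that fell, EXPA8 was the most abundant expansin in the dark. It was at 119, 127 and 43.8 FPKM in the dark, 16.7, 13.2 and 13.5 at 1 h, and 72.7, 53.9 and 53.1 at 2 h. The 1 h libraries lay below all dark libraries, and the 2 h libraries lay in between or overlapped with the lowest dark one. The log2 fold change was -2.73 (SE 0.44, adjusted p = 0.000440) at 1 h, and the gene rose by 1.92 (SE 0.42, adjusted p = 0.00192) from 1 h to 2 h. At 12 h EXPA8 was at 23.3, 18.1 and 8.87 FPKM (log2 fold change -2.53, SE 0.43, adjusted p = 0.000200).

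EXPA9 shared the low 1 h level, at 26.2, 48.7 and 18.6 FPKM in the dark and 10.6, 8.17 and 10.3 at 1 h (log2 fold change -1.68, SE 0.42, adjusted p = 0.0141). That call was lost without 0 h replicate 2 (-1.08, adjusted p = 0.0830), 1 h replicate 2 (adjusted p = 0.0726) or 1 h replicate 3 (adjusted p = 0.0518). EXPA9 was lower at 4 h in all such fits (-2.10, SE 0.42, adjusted p = 0.000884). EXPA11 fell more steadily. It was at 39.0, 45.9 and 12.2 FPKM in the dark, 17.8, 21.0 and 22.9 at 1 h, 15.3, 14.1 and 11.3 at 2 h, 4.26, 2.78 and 4.48 at 4 h, and 4.32, 4.19 and 3.47 at 12 h. From 4 h on its libraries were all below those of the earlier times, with a log2 fold change of -2.99 (SE 0.40, adjusted p = 1.93e-05) at 12 h. EXPA4 was at 31.0, 26.4 and 49.4 FPKM in the dark, 33.2, 31.2 and 43.1 at 2 h, and 10.7, 8.22 and 6.34 at 12 h. Its level at 2 h overlapped with the dark, and at 12 h it did not (log2 fold change -2.02, SE 0.27, adjusted p = 2.26e-05). EXPA16, at 0.82 to 4.85 FPKM, was called lower at 8 h only, a call lost without any of 4 libraries, among them 0 h replicate 3 (adjusted p = 0.127).

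EXPA1 and EXPA10, which have 79.7% identical coding sequences, were the 2 expansins called higher at each time from 2 h on. EXPA1, known from leaves and guard cells, was at 26.1, 29.2 and 20.9 FPKM in the dark, 26.7, 19.4 and 27.4 at 1 h, and 79.3, 65.8 and 65.8 at 2 h. At 8 h it was at 209, 65.0 and 257, and at 12 h at 183, 184 and 84.9. The libraries from 2 h on were all above those of the dark and 1 h. The log2 fold change was 1.37 (SE 0.38, adjusted p = 0.00860) at 2 h, 2.84 (SE 0.40, adjusted p = 3.55e-05) at 8 h and 2.58 (SE 0.40, adjusted p = 8.03e-05) at 12 h. EXPA10, known for a role in leaf growth, was at 8.00, 5.47 and 11.1 FPKM in the dark, 61.7, 49.5 and 32.2 at 2 h, 66.5, 20.7 and 128 at 8 h, and 93.6, 59.2 and 33.3 at 12 h. All its libraries from 2 h on were above the dark ones, with a log2 fold change of 2.44 (SE 0.58, adjusted p = 0.00299) at 2 h and 2.93 (SE 0.59, adjusted p = 0.000807) at 12 h. Both genes were low in 8 h replicate 2 and 12 h replicate 3 relative to the other libraries of those times. Of 5 guard cell markers, SPCH was also called higher at 2 and 4 h, SPCH and MUTE at 8 h, and SPCH, MUTE and MYB60 at 12 h. The shares of all genes called higher at these times were 13.9%, 11%, 13.6% and 13.1%. FAMA and KAT1 were called higher at none of them, and 1 of the 5 was lower at 1 h (2.09% of all genes). The 5 markers summed to 7.37, 7.07 and 11.7 FPKM in the dark, 17.3, 10.7 and 14.0 at 8 h, and 18.7, 17.7 and 11.5 at 12 h. Their part in the levels of EXPA1 and EXPA10 was not tested.

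The family sums were split in the same late libraries, and few members carried these sums. EXPA1, EXPA10 and EXPA2 held 68.7% of the expansin sum at 8 h, and XTH24 was at 1659 FPKM in 8 h replicate 2. Other members differed from the sums. EXLA1 was highest in 8 h replicate 2 and 12 h replicate 3 (26.7 and 36.9 FPKM), and XTH31 was lowest there (31.5 and 42.25). In 8 h replicate 2 the expansin sum was 239 FPKM, against 464 and 654 in replicates 1 and 3, while the XTH sum was 2534, against 1543 and 1419. In 12 h replicate 3 the expansin sum was 245 FPKM, against 521 and 391, and the XTH sum 2232, against 1761 and 1722. EXPA2, an expansin of germinating seeds, and EXPA15 were highest in 8 h replicate 3. EXPA2 was at 2.19, 0.70 and 25.4 FPKM in the dark, 48.9, 43.8 and 93.5 at 8 h, and 78.4, 18.4 and 15.9 at 12 h. All 8 h libraries were above all dark ones. Its call at 8 h (log2 fold change 2.84, SE 1.06, adjusted p = 0.0374) was lost without 0 h replicate 1 (adjusted p = 0.116), 0 h replicate 2 (0.109), 8 h replicate 1 (0.0559) or 8 h replicate 3 (0.103), and the log2 fold change was 5.42 without 0 h replicate 3. The highest dark value of EXPA2 was in the dark library with the highest seed storage sum. At 8 h that sum was 8.10, 9.98 and 24.6 FPKM, again highest in the library with the highest EXPA2, and its part in the EXPA2 levels was not tested. EXPA15 was at 1.74, 0.87 and 2.26 FPKM in the dark and at 7.41, 2.78 and 18.3 at 8 h (2.60, SE 0.84, adjusted p = 0.0191), a call lost without 0 h replicate 2 (adjusted p = 0.0701) or 8 h replicate 3 (1.74, adjusted p = 0.120).

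A further set of expansins was called higher at 2 h alone. EXPA6 was at 10.4, 9.32 and 11.7 FPKM in the dark, 5.94, 4.91 and 5.95 at 1 h, and 49.7, 39.1 and 14.9 at 2 h, without overlap (log2 fold change 1.65, SE 0.34, adjusted p = 0.00109). EXPA14 was at 4.17, 2.43 and 2.23 FPKM in the dark and at 12.6, 10.4 and 4.10 at 2 h, where replicate 3 overlapped with the dark (1.55, SE 0.36, adjusted p = 0.00257). The beta-expansin EXPB3 was at 2.36, 1.69 and 2.46 FPKM in the dark and at 23.9, 17.9 and 6.73 at 2 h, without overlap (2.78, SE 0.55, adjusted p = 0.000763). In each of these genes, 2 h replicate 3 was the lowest 2 h library, and the 3 calls held in all 18 fits that left out 1 library. EXPA5 passed in both directions, at 7.00, 9.98 and 1.62 FPKM in the dark, 33.3, 28.3 and 7.11 at 2 h, and 1.40, 0.93 and 2.35 at 8 h. Its rise at 2 h (1.76, SE 0.65, adjusted p = 0.0371) was lost without 0 h replicate 1 (adjusted p = 0.0739), 0 h replicate 3 (0.0903), 2 h replicate 1 (0.143) or 2 h replicate 2 (0.0984), and its fall at 8 h (-2.004, SE 0.70, adjusted p = 0.0284) without 0 h replicate 1 (0.0582), 0 h replicate 2 (0.130), 8 h replicate 1 (0.0816) or 8 h replicate 2 (0.0913).

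EXPA7, a root hair expansin, was nearly absent outside 2 h, where it had 24, 26 and 18 counts against 1, 0 and 0 in the dark. It passed the count filter only through those 3 libraries, so that its call at 2 h is a description. The gene overlaps AT1G12570 on the opposite strand by 23 bases. EXPA18, its partner in root hairs, did not pass the filter: it had 23, 16 and 3 counts at 2 h and 0 in the other 15 libraries. EXPA17 and XTH21, also outside the filter, had 57, 35 and 1 and 37, 33 and 2 counts at 2 h, against at most 4 and 9 in any other library. Of the 11 members outside the filter, 6 had their highest count in 2 h replicate 1.

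Several markers of root and other cell types were also highest at 2 h. Of 8 root hair markers, COBL9, PRP3 and LRX1 passed the count filter only through the 2 h libraries, at means of 0.847, 3.39 and 1.88 FPKM there. ADF8 was called higher at 2 h and 4 h, but it passed the count filter only through the 4 h libraries (0.57, 0.38 and 0.49 FPKM). Its call at 4 h is thus a description. The 2 h libraries of LRX2, RSL4 and RHD6 overlapped with the dark ones. LRX2, the highest of the list in the dark, was at 6.94, 5.99 and 3.78 FPKM there and at 5.02, 4.12 and 4.96 at 2 h. Called higher at 2 h were 2 of 4 root markers (PYK10 and WER), 5 of 6 xylem markers and 1 of 2 epidermis markers (PDF1), against 13.9% of all genes. The root hair markers summed to 16.0, 14.5 and 11.4 FPKM at 2 h and to between 2.05 and 8.12 in the other libraries, and COBL9 and MRH6 were at or near 0 outside 2 h. PYK10 was at 3187, 3573 and 1026 FPKM at 2 h and at 970, 771 and 536 in the dark. Replicate 3 of 2 h was thus the lowest 2 h library in the sums of root hair, root and epidermis markers. It was also the lowest 2 h library in all 14 members called higher at 2 h, among them EXPA7, which passed the filter only through these libraries. In EXPA1, replicates 2 and 3 of 2 h were nearly equal (65.83 and 65.78 FPKM). The same count over all genes called higher at 2 h was not made, so it cannot be told whether this is particular to the members. The part of these cell types in the 2 h levels of the members was not tested.

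**Figure D5:**
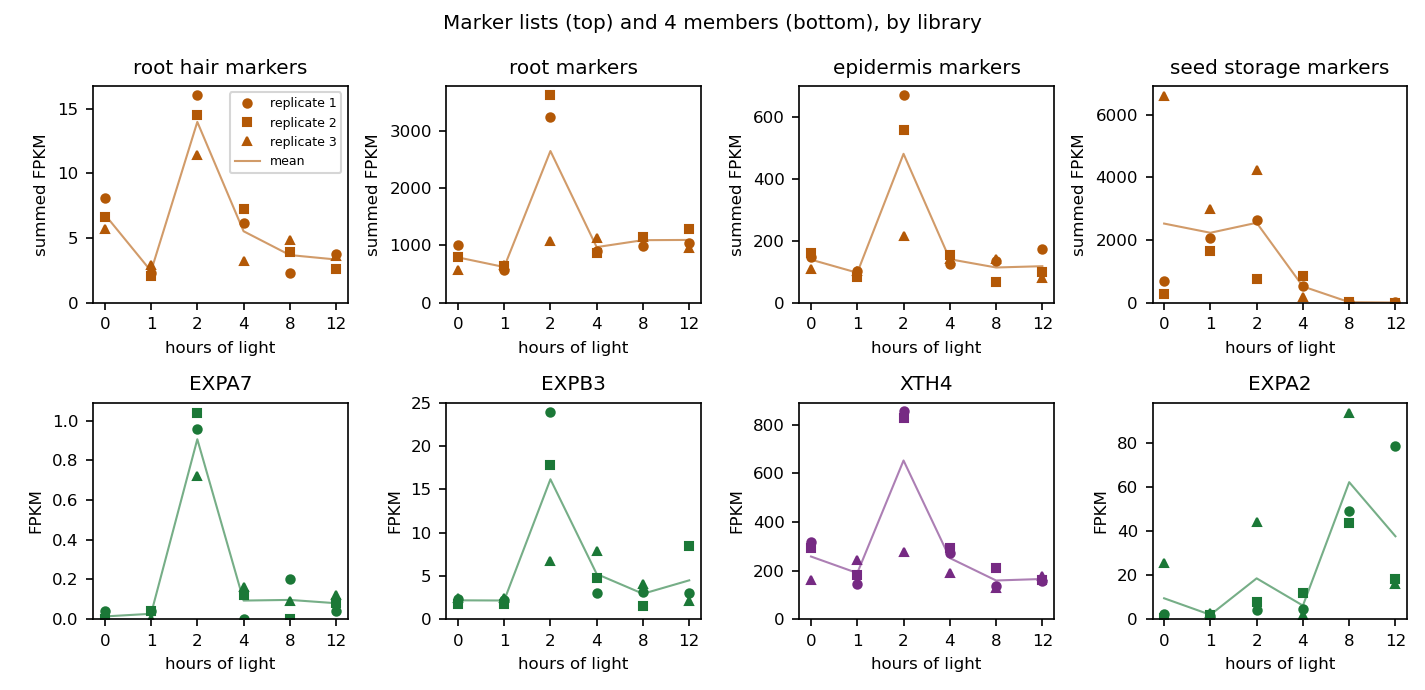
Summed FPKM of 4 marker lists (top) and FPKM of EXPA7, EXPB3, XTH4 and EXPA2 (bottom) in each library, by hours of light (times at equal spacing), with 1 symbol per replicate and a line through the means. Root hair, root and epidermis markers are highest at 2 h, with replicate 3 lowest, as are EXPA7, EXPB3 and XTH4, and seed storage markers are highest in 0 h replicate 3.

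Of the other beta-expansins, EXPB1 was low after 2 h. It was at 4.77, 6.45 and 0.46 FPKM in the dark, 14.2, 9.47 and 2.11 at 2 h, and 0.17, 0.25 and 0.96 at 4 h. From 2 h to 4 h EXPB1 fell by 4.17 on the log2 scale (SE 1.00, adjusted p = 0.00932), the largest step of any member between these times, with values of -3.58 without 2 h replicate 1 and -5.24 without 4 h replicate 3. Its call at 12 h (-2.77, SE 0.96, adjusted p = 0.0272) was lost without 0 h replicate 2 (-2.14, adjusted p = 0.105), 0 h replicate 1 (0.0582), 12 h replicate 2 (0.0541) or 12 h replicate 3 (0.0927). EXPB4 was listed in 1 library with 2 counts and was not tested.

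Of the expansin-like genes, whose wall activity is not established, EXLA1 was lower at 2 h only. It was at 30.96, 26.0 and 40.9 FPKM in the dark, 12.9, 14.4 and 12.8 at 2 h, and 48.9, 49.9 and 21.8 at 4 h. The 2 h libraries were below all others of the course, with a log2 fold change of -1.36 (SE 0.27, adjusted p = 0.000809), and EXLA1 rose by 1.66 (SE 0.27, adjusted p = 0.00128) from 2 h to 4 h. EXLA1 counts were mostly fractional (86.6% coding identity to EXLA3), and its end overlaps the histone gene HTB9 by 22 bases. EXLA2 was at 8.78, 9.53 and 4.29 FPKM in the dark and at 2.81, 3.65 and 2.10 at 8 h, without overlap (-1.37, SE 0.39, adjusted p = 0.00886). At 12 h EXLA2 was at 3.69, 3.07 and 3.48 FPKM (-1.12, SE 0.38, adjusted p = 0.0249), a call lost without any one of 5 libraries, with adjusted p between 0.0556 and 0.102. EXLB1 stayed between 4.04 and 12.3 FPKM and was not called against the dark.

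Members with several transcripts in the deposited transcript tables kept their leading form. The transcripts AT1G69530.2 and AT1G69530.5 of EXPA1 held 37.8% and 46.8% of its FPKM in the dark and 37.5% and 48.4% at 12 h. EXPA10 was carried by AT1G26770.2 (73.8% in the dark and 77.3% at 12 h), and XTH9 by AT4G03210.2 (74.4% and 75.9%). The 3 genes thus changed in level with similar shares of their transcripts, which were not tested.

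Genes that make and trim xyloglucan were also measured. Of 15 xyloglucan synthesis genes, XLT2, a galactosyltransferase, was higher at 1 h (log2 fold change 1.18, adjusted p = 0.00191) and CSLC4, a backbone synthase, was lower (-1.92, adjusted p = 0.00147). The shares of all genes at 1 h were 3.66% higher and 2.09% lower. At 2 h, 4 were higher and none lower (CSLC12, XXT3, XLT2 and AXY4), against 13.9% and 6.46% of all genes. CSLC12 was also higher at 4 h (1.12, adjusted p = 0.0460) and CSLC4 lower at 8 h (-1.58, adjusted p = 0.00158), and at 12 h none of the 15 was called. Of 5 trimming enzymes, the xylosidase XYL1 was lower at 1 h, from 64.7, 53.8 and 71.6 FPKM in the dark to 17.95, 19.0 and 19.5 (-1.70, adjusted p = 0.00134). At 4 h the galactosidase BGAL10 (-1.27, adjusted p = 0.00276) and AT5G20950 (-1.57, adjusted p = 0.0312) were lower, against 7.51% of all genes. The dark level of AT5G20950 was uneven, at 14.3, 14.7 and 51.8 FPKM in replicates 1 to 3, against 7.06, 12.7 and 6.96 at 4 h. Of 10 tested plasma membrane proton pumps, which acidify the wall, AHA2 and AHA4 were lower at 4 h (-1.20 and -1.51, adjusted p = 0.00316 and 0.00282) and 8 h, and none was called at 12 h. Of 13 regulators of elongation, HY5, HYH and PIF7 were higher at 1 h (2.77, 3.19 and 1.13, adjusted p at most 0.00279). HY5 and HYH, which act against elongation, were higher at 12 h (1.39 and 4.46), as were PIF7 (3.86) and ARF8 (1.03), while PIF3, PIF4 and PIF5, which promote elongation in the dark, were lower (-1.33, -1.96 and -1.23; adjusted p at most 9.66e-05 for all 7). The shares of all genes at 12 h were 13.1% higher and 9.19% lower. The median log2 fold change of the xyloglucan synthesis genes at 12 h was 0.01, and that of all genes was -0.01.

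The files' orthology field lists further genes of these families that the annotation rule did not take, and they were looked up after their values were seen. Only 2 of them exceeded 10 FPKM at any time. EXP3, an alpha-expansin also called EXPA3, was at 70.2 ± 27.5 FPKM in the dark (SD, n = 3), and its mean at 12 h was 34.6 ± 22.7. EXGT-A3, a group III-B enzyme also called XTH27, went from 100 ± 13.1 to 250 ± 17.3 FPKM over the same 12 h. They enter no count above.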

How the data were processed

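Each of the 18 libraries came as a gene table and a transcript table. Per the file headers, the authors deposited an expected count (an estimated number of reads, which need not be whole) and an FPKM value for each feature. The submitters' processing notes name RSEM, Bowtie2 and HISAT2, without versions or roles. The genome build and strand setting are not given in the sources used here, so reads of genes that overlap on opposite strands cannot be told apart. Between 77.8% and 79.4% of listed genes per library had a whole count (within 0.005), and 7 members were mostly fractional. Of the loci shared with RefSeq TAIR10.1, 99.9% had identical coordinates, and sequences were read from that genome with Biopython 1.88.

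Counts were rounded and tested with edgeR 4.0.16 in R 4.3.3: filterByExpr kept 20569 of 24951 genes, TMM factors scaled the libraries, and 1 quasi-likelihood model with a term per time was fitted to all 18 libraries, with Benjamini-Hochberg adjustment over all genes. The SE given is the log2 fold change divided by the square root of F, an approximation. A gene missing from a library's table was set to 0, and the fit was checked on simulated data. Alternatives included DESeq2 1.42.0 and limma 3.58.1, the latter also on log2(FPKM + 1). Deviations of same-numbered libraries were positively correlated over genes for all 3 numbers at 2 h against dark (0.116, 0.297 and 0.289). The same held more weakly at 8 h against dark (0.0106, 0.115 and 0.240). Each other comparison had negative correlations among its 3. The 2 h comparison is also given with the replicate number as a block. Figures were drawn with matplotlib 3.10.9.

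Named genes are, per family, the called members among the 5 highest and 5 lowest at 1 h and 12 h, the 3 most abundant in the dark and at 12 h, members called in both directions, the 3 largest changes of each step, and called pathway genes at 1 h or 12 h; the other members are described to account for both families. The members, gene lists and tests were chosen with earlier results of these data known. The lists of xyloglucan, pump, regulator and marker genes were compiled by hand. In the shoot meristem list (2 tested), STM was lower at 2, 8 and 12 h, and that list is not used further.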

Additional observations from a re-analysis of the deposited data

How the results depend on the processing

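The counts of changed expansins and XTH genes in 9 comparisons each, and the count of 40 members that differed at any time, moved by less than 1.5 times with RLE factors, library size alone, no filter, a minimum of 10 counts in 3 libraries, adjusted p alone, and limma on log2(FPKM + 1) or log2(FPKM + 0.1). The exceptions were limma-voom (7 expansins at 8 h against 11), DESeq2 (5 expansins from 4 h to 8 h against 3) and the fit of only the 2 groups compared (3 XTH genes from 2 h to 4 h against 7). With the replicate number as a block, 12 XTH genes were called at 2 h against 11 (XTH17 was added), 8 at 8 h against 10, and 39 members at any time. No other call at 2 h changed. Only at 2 h and 8 h against dark were deviations of same-numbered libraries positively correlated for all 3 numbers. Leaving out 1 library in turn gave 1 to 5, 8 to 12, 5 to 8, 7 to 11 and 5 to 11 expansins at 1, 2, 4, 8 and 12 h, and 10 to 15, 5 to 12, 0 to 5 and 0 to 0 in the steps between times. For XTH genes the ranges were 4 to 6, 8 to 13, 10 to 13, 8 to 12 and 9 to 13, and 10 to 14, 3 to 8, 3 to 5 and 0 to 0, and 39 to 43 members differed at any time. Of the calls at 1, 2, 4, 8 and 12 h, 4 of 7, 15 of 20, 14 of 19, 14 of 21 and 13 of 17 held in all 18 such fits. As a share of summed expected counts, which does not divide by length, the expansins held 0.0426%, 0.0227%, 0.0534% and 0.0327% at 0, 1, 2 and 4 h, and the XTH genes 0.367%, 0.285%, 0.269%, 0.272% and 0.243% at 0, 1, 2, 4 and 12 h; of summed FPKM, the shares in the dark were 0.0540% and 0.480%. Without mostly fractional members, the expansins held 0.0250% of summed FPKM at 1 h and the XTH genes 0.410% in the dark. No called result reversed. With no filter, 3 of the 11 members outside the main fit were called higher at 2 h (EXPA17, EXPA18 and XTH13) and XTH20 was lower at 8 h and 12 h; of these, DESeq2 called EXPA17 at 2 h and XTH20 at 8 h. XTH3, XTH26 and EXPB4 had at most 3 counts in any library, and differences in them were not detectable at this depth.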
